A study of Mus musculus with 32 samples.

Results

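The genes of respiratory complex I were examined in the frontal cortex (FCtx) of mice that drank ethanol and of controls. The members were genes whose symbol in the array table begins with Nduf, 34 of the 18138 genes on the array, read by 42 probes. All 32 mice were female F1 hybrids of the inbred strains C57BL/6J and FVB/NJ. The 20 ethanol-treated mice were offered a bottle of 20% ethanol beside one of water during part of the dark phase for 20 days, and 12 mice were matched controls whose own bottles are not described in the sources used here. The treated mice drank as young adults, per the study, and no age in days was given. The labels give C57BL/6J x FVB/NJ F1 for every mouse, whereas the methods describe reciprocal crosses, and the direction of the cross was not given per mouse. Each mouse gave 1 Illumina MouseRef-8 v2.0 array, on which beads carry gene-specific 50-base probes. The ethanol-treated mice filled chips 1 and 2 (8 arrays each) and the controls filled chip 4 (8 arrays). Chip 3 held both groups, with the 4 controls at the even positions (B, D, F, H) and the 4 ethanol-treated mice at the odd ones (A, C, E, G). Treatment therefore cannot be told apart from the chip between chips 1, 2 and 4, nor from the odd or even position on chip 3, and both comparisons are given for the complex I genes.

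Complex I is the large enzyme of the inner mitochondrial membrane that takes electrons from NADH, passes them to ubiquinone and pumps protons, the entry point of most electrons into the respiratory chain of neurons and glia. Its core subunits carry the redox centres and the proton channels, and the membrane part of the core is encoded by mitochondrial DNA and is outside this gene set. The accessory subunits surround the core, and assembly factors help to build the enzyme without staying in it. The N module oxidizes NADH, the Q module reduces ubiquinone, and the proximal (PP) and distal (PD) parts of the membrane arm pump protons. Ndufa4 was named as a complex I subunit and is now placed with complex IV, so it was set apart from the roles and modules. It is still counted among the members in every total, median, mean and correlation over members.

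Probes of one gene can differ in what they show, and 1 such pair is printed first, as the array table gives it. Ndufb6, an accessory subunit of the distal membrane arm, was read by probes starting at transcript bases 165 and 208, whose 5 shared bases are in capitals:
Ndufb6 at 165: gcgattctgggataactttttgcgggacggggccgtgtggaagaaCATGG
Ndufb6 at 208: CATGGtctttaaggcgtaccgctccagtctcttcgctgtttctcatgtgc
They hold 56% and 52% G and C.

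Of the 34 genes, 31 were tested, with 38 probes, after a filter on detection that kept 7926 genes. Ndufs1, a core subunit of the N module, and Ndufab1, the acyl carrier protein, did not reach a detection p below 0.01 on any of the 32 arrays. Ndufb11, an accessory subunit of the membrane arm, had 1 probe detected on 0 arrays and 1 detected on 21. The mean signal of the 31 tested genes ran from 259 for Ndufb4 to 12852 for Ndufa4, with an array background between 137 and 183, and signals of different probes are not levels that can be set against each other. Over the whole table, 9480 to 11544 probes were detected per array. The lowest number was in control mouse C66 on chip 4, whose median signal, 146, was also the lowest of all arrays. All changes below are ethanol-treated minus control, in variance-stabilized units that run like log2 for bright probes, with the probe of highest mean signal for each gene. In bulk tissue, fewer cells of a type and less RNA per cell cannot be told apart.

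Across all 32 arrays, 3 of the 31 complex I genes were lower in ethanol-treated mice at an FDR of 1% by limma with Benjamini-Hochberg adjustment. Ndufs3, a core subunit of the Q module, fell by 13.5%. Ndufs6, an accessory subunit that binds zinc, fell by 11%, and Ndufa9, an accessory subunit of the Q module that binds NADPH, fell by 8.76%. They were 9.68% of the members, against 4.83% of all genes tested called lower. In direction, 28 of the 31 members were lower (90.3%), against 53.2% of all genes, and the median change was -0.091 for members and -0.0075 for all genes. With each array scaled to its median in place of quantile normalization, 22 of 31 members were lower, with a median of -0.025 against 0.054 for all genes, and none of the 3 calls held. None held with chip as a fixed block either.

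Ndufs3 had normalised signals of 11.29 to 11.66 (median 11.54) in the 20 ethanol-treated mice and 11.53 to 11.86 (median 11.73) in the 12 controls. All 20 ethanol-treated mice were below the median control and 9 of them below every control. The difference was -0.21 (SE 0.039, adjusted p = 0.00038). Ndufs6 ranged from 12.42 to 12.75 (median 12.60) in ethanol-treated mice and from 12.54 to 12.89 (median 12.79) in controls. Again all 20 were below the median control, and the groups overlapped. The difference was -0.17 (SE 0.038, adjusted p = 0.0024). For Ndufa9 the ranges were 11.54 to 11.85 (median 11.72) and 11.68 to 11.97 (median 11.85), with a difference of -0.13 (SE 0.035, adjusted p = 0.0081). No ethanol-treated mouse was above the median control in Ndufa9, and 6 of 20 were below all controls. Without control mouse C66 its adjusted p was 0.017.

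**Figure D1:**
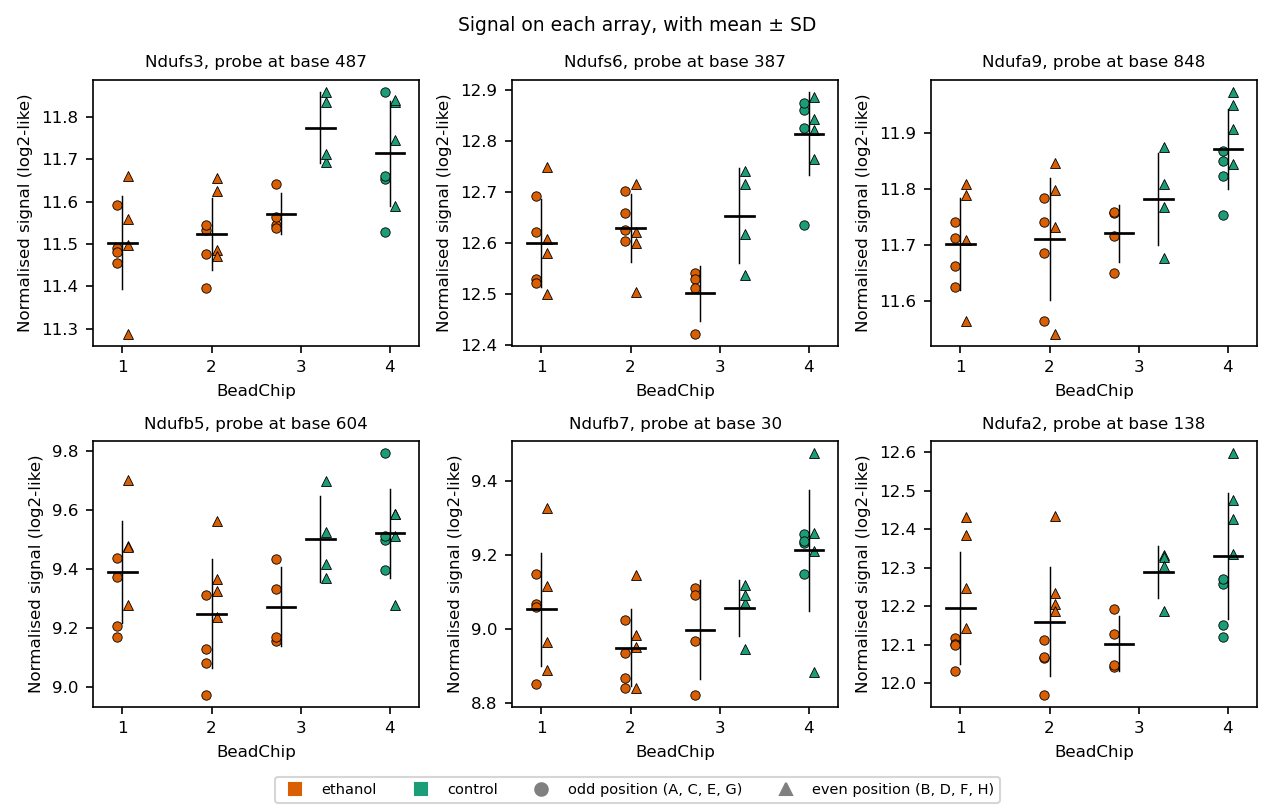
Normalised signal (vertical axis, variance-stabilized log2-like units) of the brightest probes of Ndufs3, Ndufs6, Ndufa9, Ndufb5, Ndufb7 and Ndufa2 on each array, by BeadChip (horizontal axis), coloured by treatment, with circles for odd and triangles for even positions and the mean ± SD of each set. Ndufs3 is lower in ethanol-treated mice on chip 3 as well, and Ndufa2 is lower at odd than at even positions.

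The core subunits did not move one way. Of the 5 core genes described, 3 were lower and 2 higher in direction (median -0.050), and Ndufs3 was called lower at an FDR of 1%. Ndufv1, which holds the NADH site and the flavin, was at 0.11 (SE 0.039, adjusted p = 0.041), and 17 of 20 ethanol-treated mice were above the median control. Its partner Ndufv2, an iron-sulfur subunit, differed by 0.00026 (SE 0.046). The iron-sulfur subunits Ndufs7 and Ndufs8, next to the ubiquinone site, were at -0.096 (SE 0.043, adjusted p = 0.11) and -0.050 (SE 0.034, adjusted p = 0.32), neither past the threshold.

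The accessory subunits were lower in direction in 23 of 24 genes, with a median of -0.092, the exception being Ndufa10 at 0.10 (SE 0.057, adjusted p = 0.20). Only Ndufs6 and Ndufa9 of the 24 passed the FDR of 1%. A wider call, which asked for 1.1-fold or more and an FDR below 10%, held 7 accessory genes, all lower: Ndufb5, Ndufs6, Ndufb7, Ndufa2, Ndufa12, Ndufa6 and Ndufa5. With Ndufs3 this call held 8 lower genes, which is 25.8% of the members, against 9.08% of all genes. Without control mouse C66 it held 5. Ndufb5, an accessory subunit of the distal membrane arm, was at -0.20 (SE 0.057, adjusted p = 0.011), and Ndufb7, of the same arm, at -0.16 (SE 0.051, adjusted p = 0.024). Signals of Ndufb5 were 8.97 to 9.70 (median 9.32) in ethanol-treated mice and 9.28 to 9.79 (median 9.51) in controls, and those of Ndufb7 were 8.82 to 9.33 (median 8.98) and 8.88 to 9.48 (median 9.18). The groups overlapped in both genes. The accessory genes outside the wider call, Ndufa9 and Ndufa10 aside, ran from -0.12 for Ndufc2 to -0.00024 for Ndufb10. Among them Ndufa13, also known as GRIM-19, was at -0.039 and Ndufb3 at -0.0053. Ndufa5 lay just inside the 1.1-fold limit at -0.14, and Ndufa9 just outside it at -0.13. By module, the 9 PD genes were all lower in direction (median -0.091), as were the 6 described in Q (median -0.13), 6 of 7 in PP (median -0.051) and 5 of 7 in N (median -0.072). On chip 3 the lower direction was seen in 5 of 9 in PD, 5 of 6 in Q, 3 of 7 in PP and 5 of 7 in N, in 16 of 24 accessory genes and in 2 of 5 core genes. Between chips 1 and 2 and chip 4 it was seen in 9 of 9, 6 of 6, 6 of 7 and 6 of 7, in 23 of 24 accessory genes and in 4 of 5 core genes. Ndufaf1, the only assembly factor with an Nduf name on the array, was at -0.12 (SE 0.046, adjusted p = 0.055), and Ndufa4 at -0.047 (SE 0.035, adjusted p = 0.37).

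**Figure D2:**
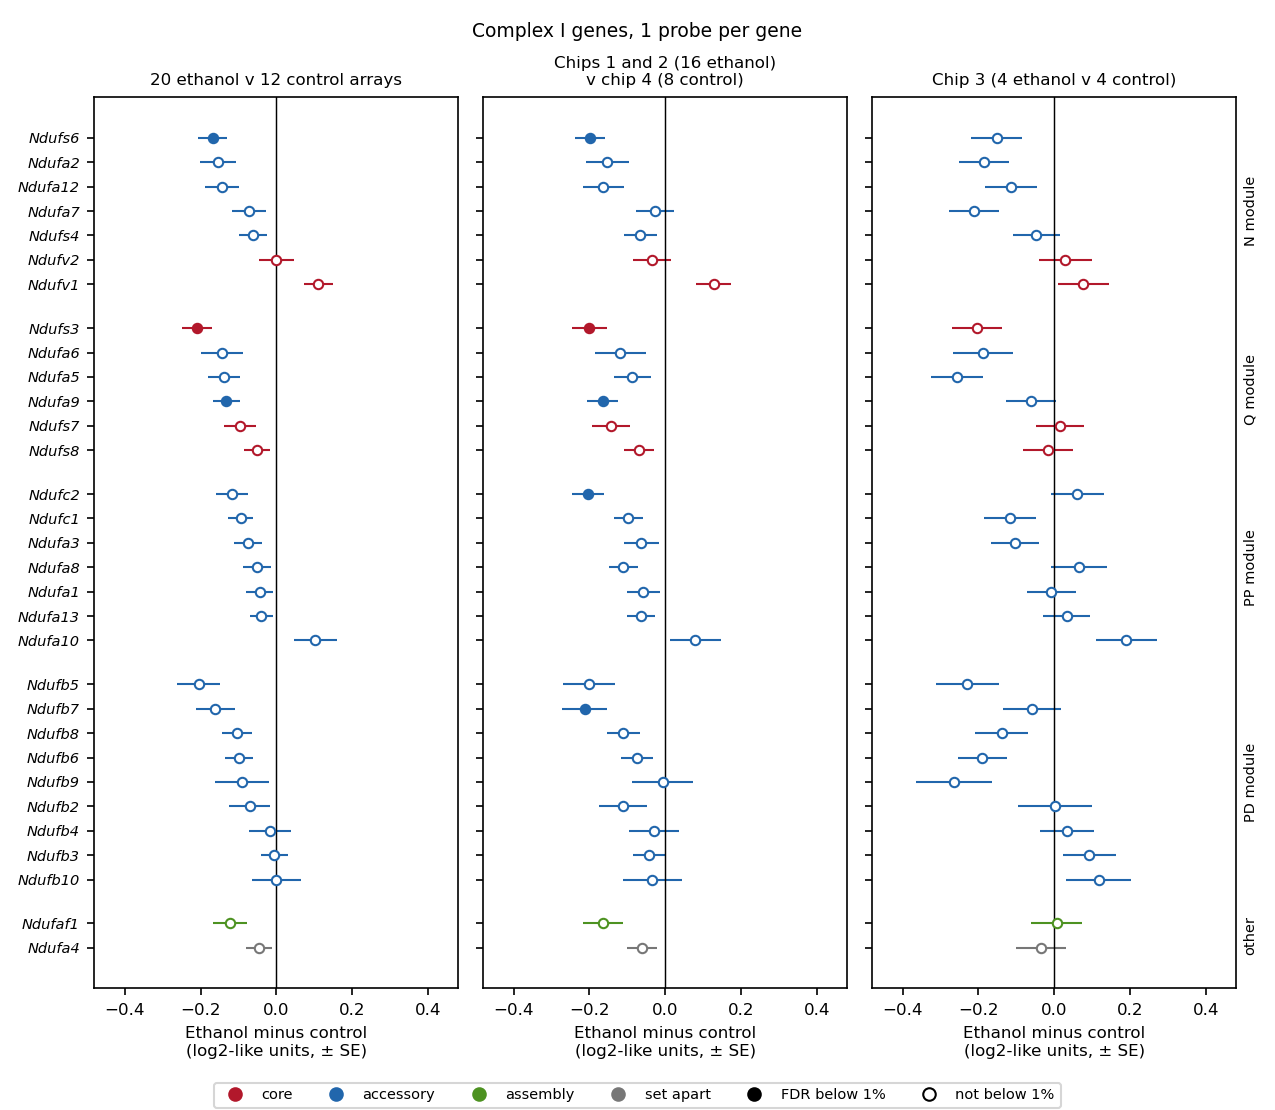
Change of each of the 31 tested genes (ethanol minus control, log2-like units, ± SE) over all arrays, between chips 1 and 2 and chip 4, and on chip 3, grouped by module and coloured by role, with filled points for FDR below 1%. Nearly all points lie left of 0 in the first and second panels, and on chip 3 19 of 31 do with none filled.

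Genes with several tested probes showed how far a change depended on the probe. Ndufs4, an accessory subunit of the N module needed for a stable enzyme, had 4 probes, with changes of -0.060, -0.11, -0.12 and -0.098 at bases 93, 209, 441 and 557. None of the 4 passed an FDR of 1%, and all had the same direction. The 2 probes of Ndufa5, an accessory subunit of the Q module, differed by less than their error, at -0.14 (SE 0.042) and -0.14 (SE 0.051), although their mean signals on the normalised scale in controls were 12.55 and 8.68. Ndufc1 was at -0.094 and -0.11 and Ndufa8 at -0.079 and -0.051. The Ndufb6 probes shown above were at -0.0051 (SE 0.052) at 165 and -0.099 (SE 0.037, adjusted p = 0.057) at 208, of which the first was the dimmer, with control means of 8.46 and 12.48.

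**Figure D3:**
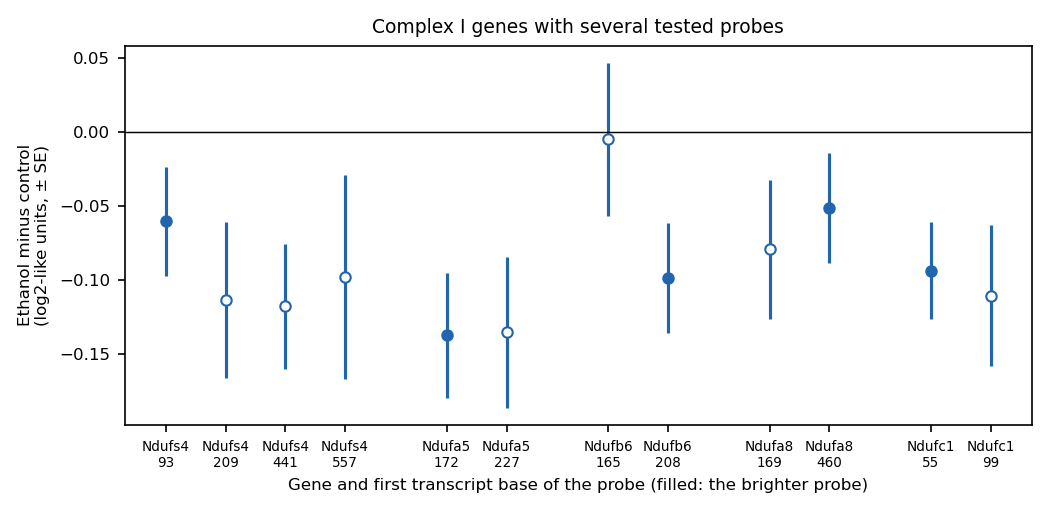
Change (ethanol minus control over 32 arrays, log2-like units, ± SE) at each tested probe of 5 genes with several probes, in order of the probe's first transcript base, filled for the brighter probe. All points lie below 0, and that of the Ndufb6 probe at 165 lies nearest to it, at -0.0051.

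Between chips 1 and 2 and chip 4, which share no array with chip 3, the lower direction was seen in 29 of 31 members (54.7% of all genes), with a median of -0.087. In this comparison 5 genes, 16.1% of the members, were called lower at an FDR of 1%, against 7.96% of all genes: Ndufs3 at -0.20 (SE 0.046), Ndufs6 at -0.20 (SE 0.040), Ndufa9 at -0.17 (SE 0.041), Ndufb7 at -0.21 (SE 0.059) and Ndufc2, of the proximal membrane arm, at -0.20 (SE 0.042). Restricted to odd positions the median was -0.10 (all genes -0.021), and to even positions -0.079 (all genes -0.011). None of the 5 calls held in either restricted fit of limma, where 0 members passed an FDR of 1%. Of all 7926 genes, 89 were called lower and 96 higher at odd positions, and 81 lower and 101 higher at even positions. An unadjusted p below 0.05 by limma was found in 11 of 31 members at odd positions, against 25.3% of all genes. At even positions it was found in 9 of 31 members, against 24.6% of all genes.

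On chip 3 alone, with 4 mice in each group, 0 members passed an FDR of 1% by limma, against 3.48% of all genes, and 10 (32.3%) had an unadjusted p below 0.05, against 27.3% of all genes. The wider call held 6 members (19.4%), all lower, against 8.36% of all genes: Ndufs3, Ndufb5, Ndufa2, Ndufa5, Ndufa7 and Ndufb6. Of these, Ndufa2, Ndufb5 and Ndufs3 were also among the 10 genes of the wider lower call between chips 1 and 2 and chip 4 (32.3% of the members, against 14.8% of all genes), which is 50% of the first list and 30% of the second. In direction 19 of 31 members (61.3%) were lower, with a median of -0.047, against 48.7% of all genes, with a median of 0.0045. The wider call held 1 gene without control mouse C55, 2 without ethanol-treated mouse A46, A47 or A49, and 3 without control mouse C54 or C56. Of the remaining omissions, of control mouse C52 or ethanol-treated mouse A50, at least 1 raised the count above 6.

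Ndufs3 on chip 3 read 11.54, 11.64, 11.54 and 11.56 in ethanol-treated mice and 11.86, 11.69, 11.83 and 11.71 in controls. The difference was -0.20 (SE 0.067, adjusted p = 0.061). Ndufa5 read 12.35, 12.29, 12.49 and 12.37 in ethanol-treated mice and 12.55, 12.60, 12.68 and 12.69 in controls. Ndufa5 differed by -0.26 (SE 0.068, adjusted p = 0.025). Ndufa7, of the N module, read 11.64, 11.63, 11.73 and 11.72 in ethanol-treated mice and 11.80, 11.94, 11.90 and 11.93 in controls. Its difference was -0.21 (SE 0.065, adjusted p = 0.047). Ndufb9, of the distal membrane arm, lay just outside the wider call at -0.26 (SE 0.10, adjusted p = 0.10). Ndufa10 read 12.27, 11.92, 11.92 and 11.92 in ethanol-treated mice and 11.86, 11.86, 11.75 and 11.81 in controls. It was higher in direction in ethanol-treated mice, by 0.19 (SE 0.081, adjusted p = 0.14), which did not pass. Ndufa9 differed by -0.061 (SE 0.067, adjusted p = 0.61) and Ndufs6 by -0.15 (SE 0.068, adjusted p = 0.16).

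The difference between the ethanol change on chip 3 and that across chips 1, 2 and 4 was tested for each gene in 1 fit of limma. At an FDR of 1%, 0 members differed, and 2 (6.45%) had an unadjusted p below 0.05, against 24.7% of all genes. The wider call held Ndufc2, at 0.26 (SE 0.080, adjusted p = 0.033), against 8.60% called higher. Ndufc2 was at 0.061 on chip 3 and at -0.20 between the other chips. The controls at even positions of chips 3 and 4 also differed in Ndufc2, by -0.23 (SE 0.077, adjusted p = 0.087), the only member in that wider call, where 5.17% of all genes were lower. Between chips 1 and 2, both of ethanol-treated mice, Ndufb10 was the only member in the wider call, at 0.26 (SE 0.068, adjusted p = 0.077), against 1.20% of all genes called higher.

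Odd and even positions were compared within chips 1, 2 and 4, where all mice of a chip had the same treatment. Ndufa2, an accessory subunit with a thioredoxin-like fold, was lower at odd positions, with a difference of -0.23 (SE 0.041, adjusted p = 0.0013), the only member called at an FDR of 1%, against 1.40% of all genes called lower. In ethanol-treated mice it averaged 12.09 at odd and 12.30 at even positions of chip 1, and 12.05 and 12.27 on chip 2. In controls of chip 4 it averaged 12.20 and 12.46. On each of these chips the odd positions were the lower. The wider call also held Ndufb9, at -0.24 (SE 0.064, adjusted p = 0.014), as lower, with 6.21% of all genes lower, and Ndufa10, at 0.20 (SE 0.055, adjusted p = 0.017), as higher, with 8.29% of all genes higher. Ndufs3 differed by -0.049 and Ndufs6 by -0.0040 between odd and even positions, neither past the threshold. Ndufb5 averaged 9.30 at odd and 9.48 at even positions of chip 1, and 9.12 and 9.37 on chip 2, both of ethanol-treated mice. In the controls of chip 4 Ndufb5 averaged 9.55 and 9.49. Of the 31 members 21 were lower at odd positions, against 48.2% of all genes. The member median was -0.031, against -0.047 on chip 3, and the median of all genes at odd against even positions was 0.0045. The changes on chip 3 had the same direction as this odd-even difference in 27 of 31 members and in 69.1% of all genes, and the same direction as the change between chips 1 and 2 and chip 4 in 21 of 31 members and in 50.7% of all genes. The changes in neither of these 2 comparisons came from an array of chip 3, and both came from the arrays of chips 1, 2 and 4.

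**Figure D4:**
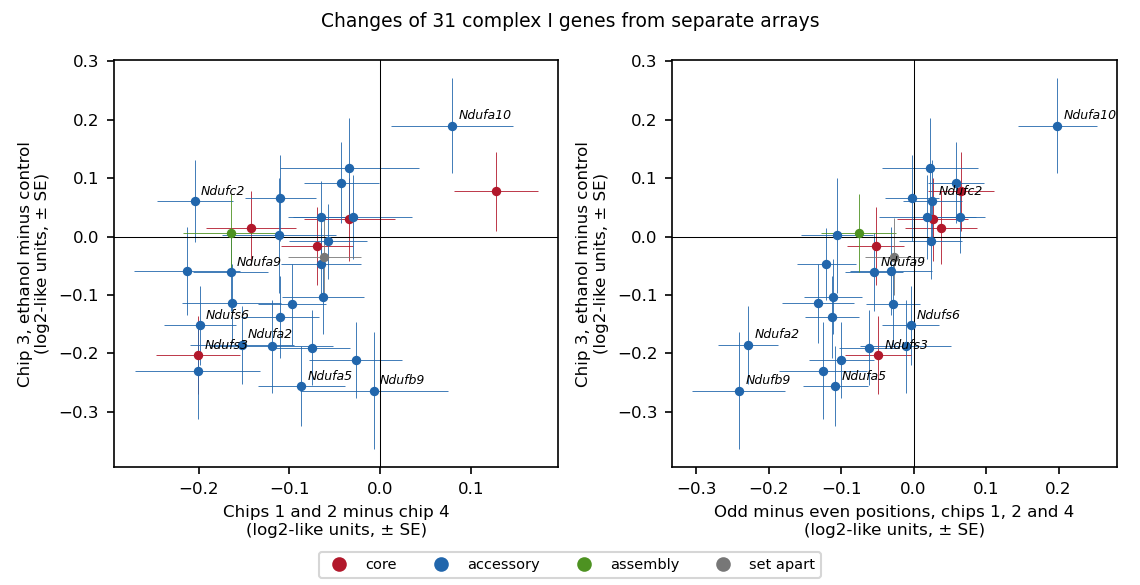
Change of each of the 31 genes on chip 3 (vertical axis) against the change between chips 1 and 2 and chip 4 (left) and against the difference between odd and even positions within chips 1, 2 and 4 (right), all in log2-like units ± SE and coloured by role. In the right panel 27 of 31 genes have the same sign on both axes, in the left panel 21 of 31.

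With both chip and odd or even position in the fit, the ethanol change is the chip 3 difference less the odd-even difference of the other chips. Then 0 members were called. The lower direction was seen in 17 of 31 members (median -0.0078), against 51.8% of all genes (median -0.0041). No member had an unadjusted p below 0.05 by limma, against 9.39% of all genes. In this limma fit 0.0252% of all genes passed an FDR of 1%. Ndufs3 was at -0.15 (SE 0.086, adjusted p = 0.60), Ndufs6 at -0.15 (SE 0.075, adjusted p = 0.54) and Ndufa9 at -0.0069 (SE 0.077, adjusted p = 0.99). With chip alone as a fixed block Ndufs3 stayed at -0.20 with an adjusted p of 0.12.

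Per array, the mean deviation of the 31 members from their gene means was below 0 in 17 of 20 ethanol-treated mice and in 2 of 12 controls, and ran from -0.11 to 0.078 in ethanol-treated mice and from -0.029 to 0.12 in controls. The highest means were on chip 4 (0.064, SD 0.042, n = 8 arrays) and the lowest on chip 2 (-0.049, SD 0.038, n = 8 arrays). On chip 3 the ethanol-treated mice averaged -0.038 (SD 0.024, n = 4) and the controls 0.022 (SD 0.046, n = 4), and the ranges overlapped slightly. The order of the chips depended on the scaling. With each array scaled to its median, chip 2 was highest (0.063, SD 0.054), chip 1 lowest (-0.065, SD 0.076) and chip 4 at 0.0025 (SD 0.28). The group means were then -0.0081 in ethanol-treated mice and 0.013 in controls. The chip 4 and control means under median scaling include control mouse C66 at -0.63, where the level of all genes was -0.55. The other arrays of chip 4 ran from -0.054 to 0.26. The level of all genes moved between chips under this scaling as well. It ran from -0.11 to 0.069 on chip 1 and from -0.013 to 0.18 on chip 2. On chip 4 without C66 it ran from -0.068 to 0.074. The order of the chips under median scaling is therefore not one of the complex I genes alone. Over the 32 arrays the median Pearson r between pairs of members was 0.20, against 0.0016 between pairs of all genes, and 0.083 after each group and chip was centred. Ndufv1 and Ndufa10, which were higher in direction in the ethanol comparison, had negative mean correlations with the other members, -0.25 and -0.25. After centring these were -0.088 and -0.15. The arrays were normalized together, and these correlations are a description.

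**Figure D5:**
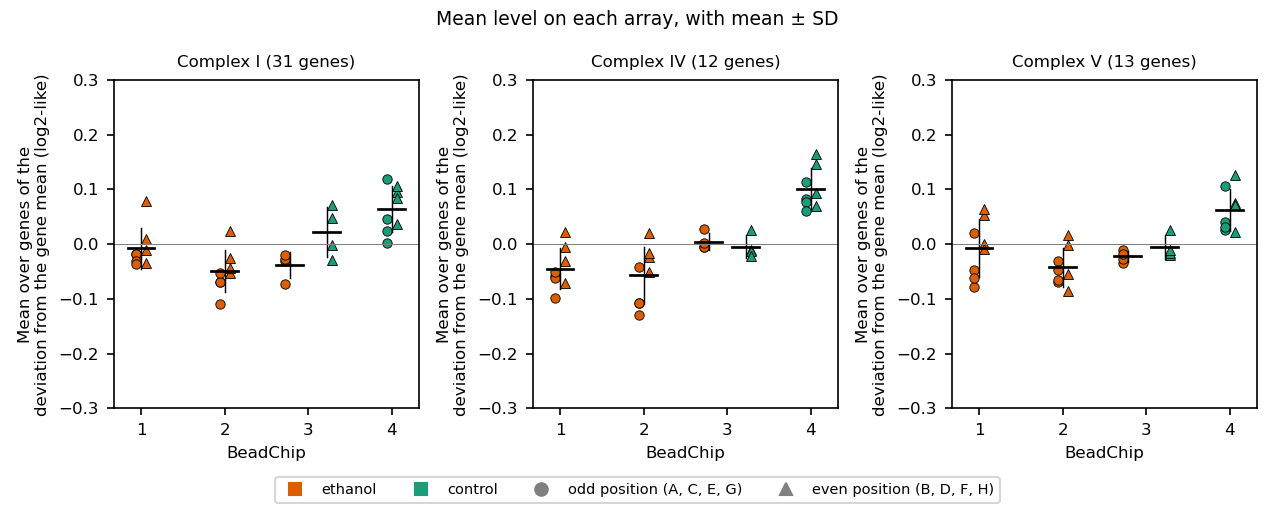
Mean over genes of the deviation from each gene's mean (vertical axis, log2-like units, quantile normalized) on each array for complexes I, IV and V, by BeadChip (horizontal axis), with the mean ± SD of each set. Controls of chip 4 have the highest mean in all 3 panels, and on chip 3 the ethanol-treated mice lie below most controls in the complex I panel while both groups lie near 0 in the complex IV panel.

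The other complexes were read from lists of gene symbols. Over all 32 arrays, 383 of all 7926 genes (4.83%) were called lower at an FDR of 1% and 241 higher, and 53.2% were lower in direction. On chip 3, 3.48% of all genes were called in either direction and 48.7% were lower. An unadjusted p below 0.05 by limma was found in 30.9% and 27.3% of all genes. In complex II 0 of 3 genes passed the FDR of 1% by limma over all 32 arrays, and 0 had an unadjusted p below 0.05. In direction 2 of the 3 were lower over 32 arrays, and all 3 were higher on chip 3. In complex III, 2 of 5 were called lower, the small subunits Uqcr at -0.18 and Uqcrh at -0.14. The other 3 were higher in direction, and the median of the 5 was 0.0038. In complex V, the ATP synthase, 2 of 13 were called lower, Atp5o at -0.30 (adjusted p = 0.00019) and Atp5d at -0.21 (adjusted p = 0.0050), and 10 of 13 were lower in direction. On chip 3 complex V had 7 of 13 lower in direction (median -0.052), with 1 called lower, Atp5d, and complex III had 3 of 5 lower in direction with 0 called and 1 at an unadjusted p below 0.05 by limma. In the complex IV list 11 of 12 were lower in direction (median -0.11) and 1 was called, Cox4nb, which is named for its place next to a cytochrome oxidase gene and is not a subunit of that enzyme. On chip 3 the complex IV median was 0.017 and 5 of 12 were lower. Mitochondrial ribosomal proteins were lower in direction in 49 of 64 genes with 8 called lower, and on chip 3 in 31 of 64. Cytosolic ribosomal proteins were lower in direction in 38 of 51 genes with 6 called lower, and on chip 3 in 37 of 51 (median -0.070) with 1 called lower. None of the 7 other complex I assembly factors was called, with a median of 0.035. Among 9 regulators of nuclear-encoded respiratory genes, Ppargc1a, a coactivator of mitochondrial biogenesis, was the 1 gene called, higher by 0.38 (SE 0.10, adjusted p = 0.0088), at 0.38 on chip 3 (adjusted p = 0.016) and at -0.037 with chip and position in the fit. None of 6 genes of glucose and pyruvate entry into mitochondria was called.

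Cell type markers moved on chip 3 as well. Of all genes, 4.83% were called lower at an FDR of 1% over 32 arrays, and 53.2% were lower in direction. On chip 3, 143 of all 7926 genes were called lower and 133 higher, and 48.7% were lower in direction. All 8 oligodendrocyte markers were lower there in ethanol-treated mice (median -0.38), 2 at an FDR of 1%, and their mean level ran from -0.27 to -0.065 in the 4 ethanol-treated mice and from -0.16 to 0.59 in the 4 controls. Over all 32 arrays 6 of 8 were lower, with a median of -0.043 and 0 called at 1%, and 2 had an unadjusted p below 0.05 by limma. At odd against even positions of chips 1, 2 and 4, 7 of 8 were lower (median -0.17), against 48.2% of all genes. Between chips 1 and 2 and chip 4, 2 of 8 were lower (median 0.053). Of the 4 olfactory bulb markers tested, Calb2 (1.32) and Doc2g (0.78) were called higher and Tbr1 (-0.54) lower on chip 3. At odd against even positions of chips 1, 2 and 4, 3 of the 4 were higher, with a median of 0.31. On chip 3 treatment and position coincide, so these marker differences cannot be given to either. Astrocyte markers had 2 of 7 and endothelial markers 1 of 5 called higher on chip 3, neuron markers had 1 of 6 called in each direction, and none of 8 microglial or 2 red cell markers was called there. Tbr1, Camk2a, Nrgn and Mef2c, markers of cortical tissue, were all detected, and 2 other cortical markers were not tested. Tbr1 was on the olfactory bulb list as well and is counted in both lists. Over all 32 arrays Tbr1, at -0.36 (adjusted p = 0.00028), and Nrgn, at -0.18 (adjusted p = 0.0061), were called lower, with a median of -0.14 for the 4. On chip 3 all 4 were lower in direction (median -0.17), with Tbr1 called. The mean level of the 4 markers ran from -0.21 to 0.18 in the 20 ethanol-treated mice and from -0.19 to 0.28 in the 12 controls, and on chip 3 from -0.15 to 0.10 and from 0.062 to 0.25. The part of these differences in cell content in the complex I values was not tested.

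Promoter sequences from RefSeq on GRCm38.p6, 300 bases each and running from 250 before to 50 after the start, were found for 31 of the 34 genes. On either strand, 18.2% of the 33 complex I promoters held the motif of NRF1, a factor that drives nuclear genes of respiration, against 4.60% of all 32851 promoters. The YY1 motif AAGATGGC was in 21.2% and 2.75%, the GABPA and ETS motif CCGGAAG in 15.2% and 8.86%, and TATAAA in 15.2% and 13.6%. The Ndufs3 and Ndufs6 promoters are shown because these were the genes called lower with the smallest adjusted p over 32 arrays, as the 30 bases before the start with the motif in capitals (GABPA and ETS in Ndufs3, NRF1 in Ndufs6):
Ndufs3, chr2:90904722-90904751, minus strand: cgcCCGGAAGaagagtcactgcacatttcc
Ndufs6, chr13:73328483-73328512, minus strand: ccgccgactgctgtGCGCCTGCGCcggcac
In the annotation Ndufs3 begins 18 bases from Kbtbd4 and Ndufs6 begins 20 bases from Mrpl36. Neither motif was shared by all 3 genes called lower, and Ndufa9 and Ndufs6 held the YY1 motif. A match describes the letters of the window and is not a binding site.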

How the data were processed

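Total RNA of FCtx from each mouse was hybridized to 1 array, and RNA was extracted in batches that each held both groups. The deposited file, not normalized by the authors, gives each probe's intensity as the mean of its beads on a linear scale, with a detection p-value against negative control beads. Other deposited values are the bead standard error and bead number. Whether background was subtracted before deposit is not given in the sources used here. The submitters' processing notes name lumi and limma. Members and gene lists were chosen with earlier results of these data known. Another gene with an Nduf symbol is not reported here, and every count, median, mean and correlation over members leaves it out, though its values would change them.

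Intensities were variance-stabilized from the bead standard errors, after the method of lumi, and quantile normalized (R 4.3.3; the data.table package, version 1.17.8). Tested were the 10187 of 25697 probes detected at p below 0.01 on at least 24 of 32 arrays. Groups were compared with limma 3.58.1 without covariates. Benjamini-Hochberg adjustment ran over all tested probes, and the brightest probe stood for each gene. Chips and positions were compared in fits of the arrays named, and each array is 1 mouse, so p-values measure the spread between mice. In fits without chip, arrays of 1 chip were treated as independent, so these p-values do not take in the full spread between chips. The number of arrays limits the precision. The procedure was tested on simulated data. Values are given for up to 10 genes called at an FDR of 1% and for the 5 largest decreases. They are also given for the 5 highest changes, of which 3 were increases, and for core subunits and assembly factors. Up to 5 genes called on chip 3 or by position, and genes whose probes disagreed in sign, are included too. Further genes are named because their values stood out. Alternatives changed the transform, background correction (normexp, offset 16), scaling, detection filter, covariates, array weights, probe and arrays. Comparing positions on some chips only was an alternative chosen after seeing the data.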

Additional observations from a re-analysis of the deposited data

Results flagged for a closer look

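Over 33 sets of values on 1 chip, of which chance alone would put about 1 in 20 on this list, 3 had a mouse far from the rest. On chip 3, ethanol-treated mouse A46 read 12.2749 in Ndufa10, against 11.9245 in the nearest of the other 3. Control mouse C54 read 11.9813 in Ndufv2, against 12.1907 in the nearest control of chip 3. On chip 1 the mean complex I level of ethanol-treated mouse A21 was 0.078, against 0.0087 in the next of the 8. The ethanol change differed between chip 3 and the other chips, by the test of the difference in limma at an FDR below 10%, in Ndufc2, by 0.26 (adjusted p = 0.033).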

How the results depend on the processing

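No paired analysis was possible because the groups share no mouse numbers. Over all 32 arrays, 3 members were called at an FDR of 1%, 8 in the wider call, and the median was -0.091. Scaling to the median gave 0, 0 and -0.025. With normexp, 2 were called at 1%. With chip as a fixed block 0 were called at 1% and 1 in the wider call, with a median of -0.047, and with chip as a random block 0 and 4. Odd or even position, or position A to H, as a covariate left 2 at 1% and 4 in the wider call. Chip with odd or even position gave 0, 0 and -0.0078. Chip 3 alone gave 0 at 1% and a median of -0.047. Without control mouse C66, 2 were called at 1% and 5 in the wider call. On chip 3, the wider call held 6 genes, 1 with normexp, 3 with median scaling, and 1 to 8 with each mouse left out in turn. The odd and even call of Ndufa2 was not made on chips 1 and 2 alone, with 0 members called, or on chip 4 alone, with 0, in a comparison chosen after seeing the data. In these, 9 and 2 members had an unadjusted p below 0.05 by limma, against 21% and 15.9% of all genes. Of 196 values under alternatives, for the 14 genes named by the rules above, 19 kept their direction but lost the call at an FDR of 1%. The sign changed in 25, in 8 genes, none of them called at 1% in either setting. These include Ndufa2, of the wider lower call at -0.15, which was at 0.043 with chip and odd or even position in the fit. The cause was not tested.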
